A study of Mus musculus with 15 samples.

Results

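The genes described here are 50 genes of cell division and DNA replication, chosen by symbol and read in the lungs of 15 mice. They are the MCM helicase genes, the sliding clamp Pcna, enzymes that supply deoxynucleotides, factors that license origins, the E2F and cyclin E regulators, and the cyclins, kinases, motors and kinetochore genes of mitosis. All 50 symbols were found among the 24054 genes listed in the table of expected counts, and all 50 passed the filter on low counts that left 15905 genes for testing. The lowest expected count of any of them in a library was 43 in anti-IL-4Ra lungs, 30 in OVA lungs and 15 in saline lungs, so none was near the detection limit.

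Whole lungs came from female wild type Balb mice, 5 in each of 3 groups, and their RNA was sequenced. In the anti-IL-4Ra group, mice sensitised to ovalbumin (OVA) by intraperitoneal injection and challenged with nebulized OVA received an antibody against the mouse IL-4 receptor alpha chain at 30 mg/kg. In the OVA group, sensitised and challenged mice received an isotype control antibody, and in the saline group sham-treated mice received the same isotype control. Both IL-4 and IL-13 signal through this chain, and OVA challenge of a sensitised mouse is a model of allergic airway inflammation. Ages of the animals, times of collection and batches are not stated in the material used here.

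A dividing cell copies its DNA in S phase and separates the copies in mitosis. Before S phase, Cdc6 and Cdt1 help load the ring of Mcm2 to Mcm7 onto origins, where it becomes the core of the replicative helicase, and E2F factors switch on many genes of this step. Later, cyclins A and B with Cdk1 drive entry into mitosis, when genes under FOXM1 and B-MYB control reach their highest expression. In a resting adult lung few cells divide, while antigen challenge is known to set off division of lymphocytes and of some epithelial and macrophage populations.

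Totals of expected counts were 12317805 to 16914475 in anti-IL-4Ra libraries, 10042825 to 14706131 in OVA libraries and 16774285 to 27570666 in saline libraries. At these depths 3 counts equal 0.109 to 0.299 CPM on uncorrected library totals. All other CPM values are counts scaled to TMM-corrected library totals. Markers of lung structure were present in every library: 6 genes that include Sftpc, Ager and Cdh5 summed to 8804 to 19887 CPM in anti-IL-4Ra lungs, 6696 to 15700 CPM in OVA lungs and 18805 to 35348 CPM in saline lungs. The 45S ribosomal RNA precursor Rn45s took 7.34 ± 4.69% of counts in anti-IL-4Ra lungs, 7.14 ± 3.36% in OVA lungs and 1.75 ± 0.682% in saline lungs (SD, n = 5 each). This share was higher in OVA than in saline lungs (two-sided exact permutation test, p = 0.00794, the smallest 5 against 5 can give, adjusted p = 0.0238 over 3 comparisons). It was also higher in anti-IL-4Ra than in saline lungs (exact permutation p = 0.0317, adjusted p = 0.0476), a call lost without any 1 of the saline replicates (p up to 0.0794), while anti-IL-4Ra and OVA lungs overlapped (exact permutation p = 0.952). Results against saline are therefore also given with the share of Rn45s as a covariate.

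OVA challenge went with higher RNA of nearly the whole set. Of the 50 genes, 49 were higher in OVA than in saline lungs and 0 were lower, in a comparison in which 19.3% of all genes tested were called higher, 17.8% lower and 37.1% in either direction. The threshold for a call was an adjusted p of 0.05, with the adjustment made over the whole table. The median log2 fold change of the 50 genes was 2.24, a 4.71-fold difference, beside a median of 0.02 over all genes tested. The 5 OVA values lay above all 5 saline values for 47 of the genes, as they did for 12.1% of all genes tested (14.5% lay wholly below), and the exceptions were Mcm4, Pcna and Tyms. The thymidylate synthase gene Tyms alone did not pass the test. In bulk tissue, more dividing cells and more of these RNAs per cell cannot be told apart.

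**Figure D1:**
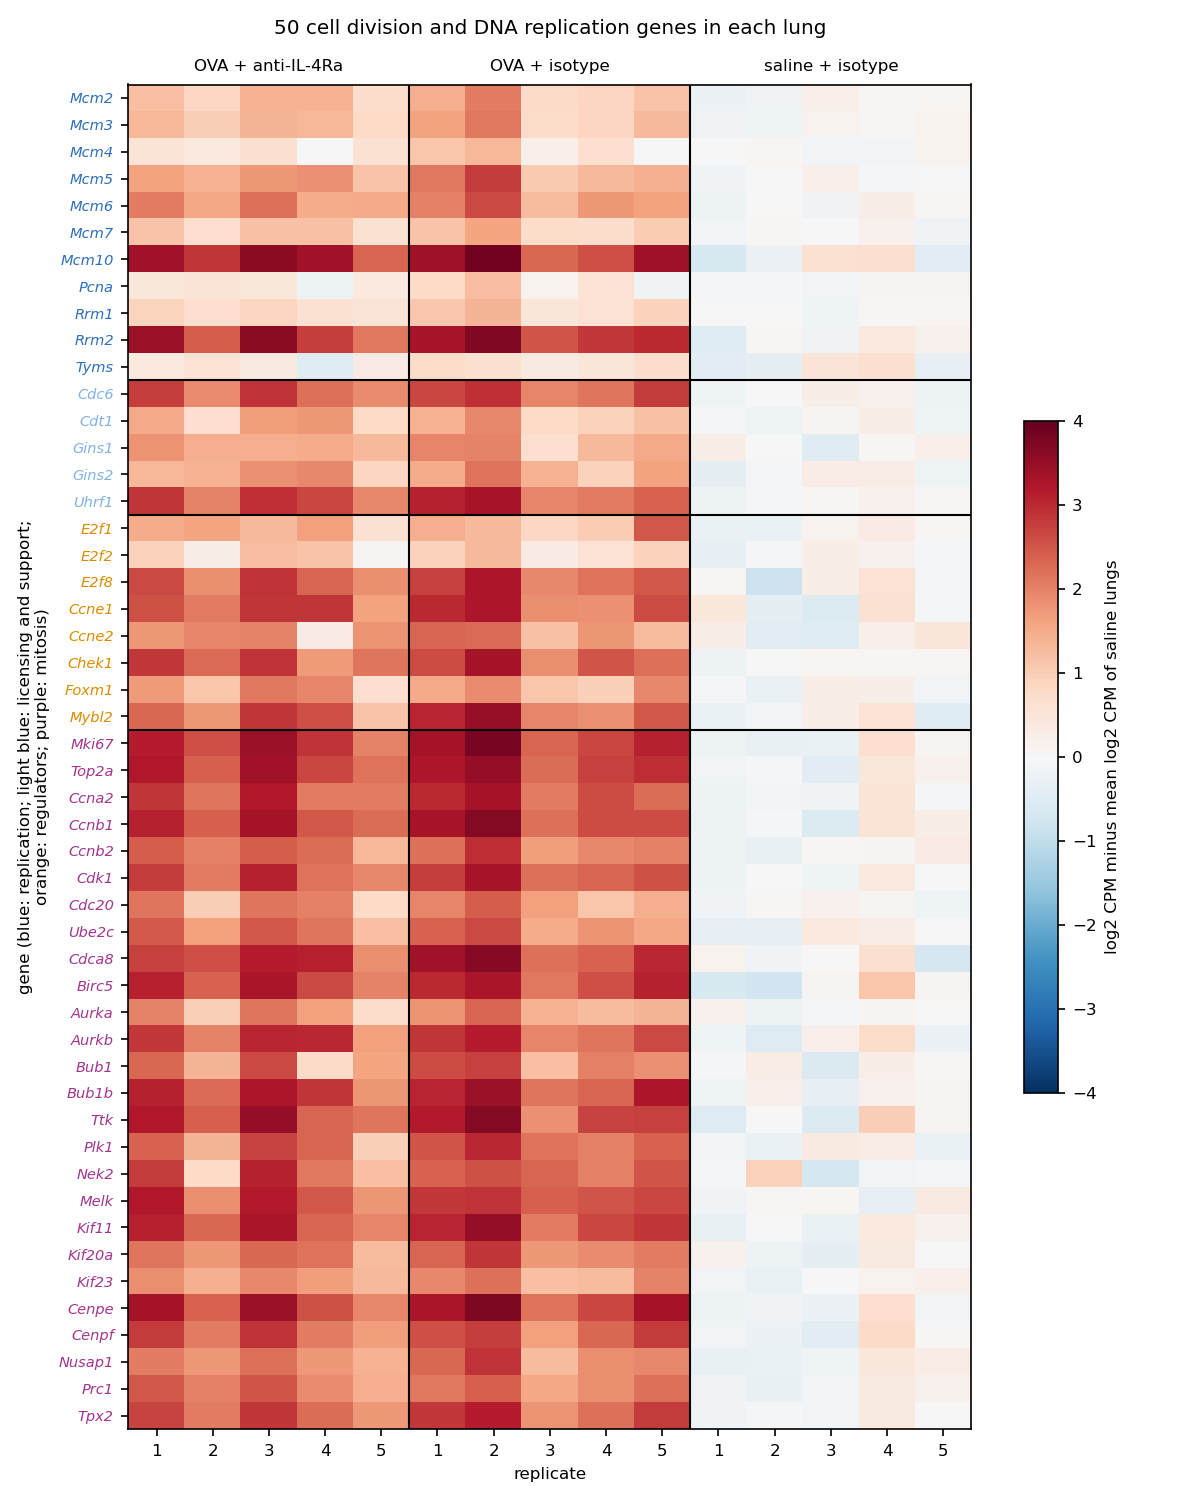
Each row is a gene, each column a lung, and the colour is log2 CPM minus the mean log2 CPM of the 5 saline lungs, with rows grouped by role. Nearly all rows are red in the 10 OVA-challenged lungs, with or without the antibody, and palest in the rows of Tyms, Pcna, Mcm4 and E2f2.

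Since the genes moved together, their promoters were read for letters known from cell cycle genes. Promoters were those of RefSeq on GRCm38.p6, from 250 bases before to 50 bases after the annotated start, 41 of the 50 genes had an entry, and both strands were searched. E2F-like letters (TTCGCGC or TTGGCGC) were present in 4 of 10 replication promoters (40.0%) and 3 of 22 mitosis promoters (13.6%), against 3.98% of all 27025 promoters. The cell cycle genes homology region, or CHR (TTTGAA or TTTAAA), bound by MuvB complexes that carry B-MYB or FOXM1, was present in 3 of 10 replication promoters and 18 of 22 mitosis promoters (81.8%), against 27.8% of all. CCAAT, the letters recognised by NF-Y, was present in 90.0% of replication promoters and 86.4% of mitosis promoters, against 37.9% of all. CHR and CCAAT occurred together in 17 of 22 mitosis promoters (77.3%), 3 of 10 replication promoters (30.0%) and 10.9% of all. Matches may overlap and each strand was counted, and a match is a description of letters and not of binding.

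The replication promoters with the most E2F-like matches were those of Mcm6 (chr1:128359656-128359955, minus strand) and Mcm5 (chr8:75109259-75109558, plus strand), shown with the E2F-like letters of either strand in capitals. Mcm6 has 5 matches that merge into 3 stretches. Mcm5 has 3.
Mcm6: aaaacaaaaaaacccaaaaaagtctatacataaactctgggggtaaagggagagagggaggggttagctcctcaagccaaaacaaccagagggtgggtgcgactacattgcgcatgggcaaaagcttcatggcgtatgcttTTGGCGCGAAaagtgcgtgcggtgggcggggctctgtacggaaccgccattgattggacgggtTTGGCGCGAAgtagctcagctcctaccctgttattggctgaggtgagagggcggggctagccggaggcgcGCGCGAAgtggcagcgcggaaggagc
Mcm5: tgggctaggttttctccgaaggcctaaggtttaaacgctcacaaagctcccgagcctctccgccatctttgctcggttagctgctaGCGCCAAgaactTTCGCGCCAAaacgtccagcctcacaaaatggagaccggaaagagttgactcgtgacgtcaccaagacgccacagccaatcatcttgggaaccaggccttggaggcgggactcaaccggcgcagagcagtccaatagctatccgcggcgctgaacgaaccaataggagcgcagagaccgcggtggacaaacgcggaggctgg
The mitosis promoters with the most CHR and CCAAT matches were those of Top2a (chr11:99024140-99024439, minus strand) and Ube2c (chr2:164769679-164769978, plus strand), with CHR and CCAAT letters of either strand in capitals. Top2a has 2 CHR and 6 CCAAT matches. Ube2c has 1 CHR match and 6 CCAAT matches.
Top2a: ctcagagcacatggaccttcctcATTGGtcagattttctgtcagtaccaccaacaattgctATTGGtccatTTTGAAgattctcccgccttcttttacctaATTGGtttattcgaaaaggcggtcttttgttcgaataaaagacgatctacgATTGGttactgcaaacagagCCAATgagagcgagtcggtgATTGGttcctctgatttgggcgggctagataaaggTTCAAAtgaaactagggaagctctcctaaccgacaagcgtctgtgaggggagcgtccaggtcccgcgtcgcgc
Ube2c: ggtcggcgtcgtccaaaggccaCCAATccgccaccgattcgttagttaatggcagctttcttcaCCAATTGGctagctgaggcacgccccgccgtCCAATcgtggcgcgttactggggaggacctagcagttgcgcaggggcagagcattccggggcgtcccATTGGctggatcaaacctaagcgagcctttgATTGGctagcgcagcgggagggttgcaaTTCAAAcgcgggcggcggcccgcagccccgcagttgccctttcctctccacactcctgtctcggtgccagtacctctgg

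The replication genes proper were higher with OVA in 10 of 11 cases, with a median log2 fold change of 1.33 and a range from 0.51 to 3.12. Mcm5, a subunit of the replicative helicase, was at 43.0, 36.5, 47.0, 49.4 and 30.5 CPM in anti-IL-4Ra lungs, 60.2, 96.8, 29.0, 34.1 and 37.3 CPM in OVA lungs, and 12.7, 14.0, 16.1, 13.4 and 13.9 CPM in saline lungs. Every challenged lung was above every saline lung, and OVA replicate 2 was the highest of all. The log2 fold change of OVA over saline was 1.88 ± 0.27 (SE, adjusted p = 0.00017).

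Mcm6, another subunit of the ring, was at 61.8, 43.7, 69.6, 42.0 and 42.7 CPM in anti-IL-4Ra lungs, 60.5, 94.2, 36.3, 49.3 and 45.4 CPM in OVA lungs. All 10 lay well above the saline lungs, whose middle value was 15.1 CPM. Its change, 1.93 ± 0.23 (adjusted p = 4.5e-05), was the largest of the 6 ring subunits. Mcm2 averaged 45.3 ± 18.1 CPM in OVA lungs and 18.1 ± 2.20 CPM in saline lungs, a log2 fold change of 1.33 ± 0.22 (adjusted p = 0.00046). Mcm3 differed by about as much, with 1.40 ± 0.22 (adjusted p = 0.00028).

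The ring subunits with the smallest changes were Mcm7 and Mcm4. Mcm7 averaged 55.1 ± 14.0 CPM in OVA lungs and 26.3 ± 2.36 CPM in saline lungs, a log2 fold change of 1.07 ± 0.16 (adjusted p = 0.00027). Mcm4 was at 72.7, 84.8, 38.9, 53.0 and 33.7 CPM in OVA lungs and at 33.4, 35.7, 31.3, 31.0 and 36.8 CPM in saline lungs. OVA replicate 5 fell inside the saline range, and the log2 fold change was 0.75 ± 0.21 (adjusted p = 0.011). The 95% intervals of Mcm4 (0.31 to 1.20) and Mcm6 (1.44 to 2.41) did not overlap, although the 6 proteins act in 1 ring. With the Rn45s covariate the changes of OVA over saline were closer, 0.91 ± 0.31 for Mcm4 and 1.64 ± 0.32 for Mcm6. The separation therefore depends on the fit without it.

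Mcm10, which helps activate the loaded helicase, had the largest change of all 50 genes. It was at 13.4, 9.57, 15.7, 13.5 and 6.64 CPM in anti-IL-4Ra lungs, 13.9, 19.0, 6.48, 7.93 and 13.7 CPM in OVA lungs, and 0.865, 1.12, 2.02, 2.07 and 0.977 CPM in saline lungs. The lowest challenged lung was more than 3 times the highest saline lung, and OVA exceeded saline by 3.12 ± 0.35 on the log2 scale (adjusted p = 3e-05).

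The subunits of ribonucleotide reductase, the enzyme that makes deoxynucleotides, parted. Rrm2, the small subunit whose protein is limited to S phase and G2, was at 50.3, 24.8, 57.2, 31.3 and 20.0 CPM in anti-IL-4Ra lungs, 45.1, 61.0, 26.8, 32.7 and 36.4 CPM in OVA lungs, and 3.27, 4.84, 4.24, 6.09 and 5.25 CPM in saline lungs. Its log2 fold change was 3.09 ± 0.31 (adjusted p = 1.6e-05). Rrm1, the large subunit, averaged 84.6 ± 21.1 CPM in OVA lungs and 44.9 ± 2.84 CPM in saline lungs, a log2 fold change of 0.91 ± 0.15 (adjusted p = 0.00033). No OVA value of either subunit fell into its saline range. The log2 ratio of Rrm2 to Rrm1 CPM within a lung was -1.68 to -0.51 in anti-IL-4Ra lungs, -1.22 to -0.91 in OVA lungs and -3.77 to -2.94 in saline lungs.

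Pcna and Tyms had the smallest changes of the set and, per length of transcript, its highest saline levels. Pcna, the clamp that holds polymerases on DNA and also serves DNA repair, was at 68.6, 73.1, 68.7, 43.8 and 66.8 CPM in anti-IL-4Ra lungs, 87.9, 119, 55.9, 75.7 and 46.1 CPM in OVA lungs, and 47.8, 49.3, 46.9, 54.6 and 54.6 CPM in saline lungs. OVA replicate 5 was below all saline lungs, and the log2 fold change was 0.61 ± 0.21 (adjusted p = 0.032). This call was lost without OVA replicate 1, 2 or 4 (log2 fold change 0.51, 0.39 and 0.57, adjusted p = 0.097, 0.11 and 0.062) and without saline replicate 1, 2 or 3 (0.58, 0.55 and 0.58, adjusted p = 0.066, 0.079 and 0.063).

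Tyms, which makes thymidylate, was at 277, 315, 274, 151 and 268 CPM in anti-IL-4Ra lungs, 353, 329, 269, 296 and 345 CPM in OVA lungs, and 157, 163, 304, 327 and 168 CPM in saline lungs. Saline lungs fell into a low and a high set, with replicates 3 and 4 as high as OVA lungs. The log2 fold change of OVA over saline was 0.51 ± 0.23 (adjusted p = 0.093), and it passed the test without saline replicate 3 (0.64, adjusted p = 0.047) or saline replicate 4 (0.68, adjusted p = 0.028). The expected counts of Tyms were not whole in any of the 15 libraries, so reads were shared with other loci. The annotated pseudogene Tyms-ps took 6.72 to 25.0 expected counts per library, beside 2251.29 to 6028.96 for Tyms.

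**Figure D2:**
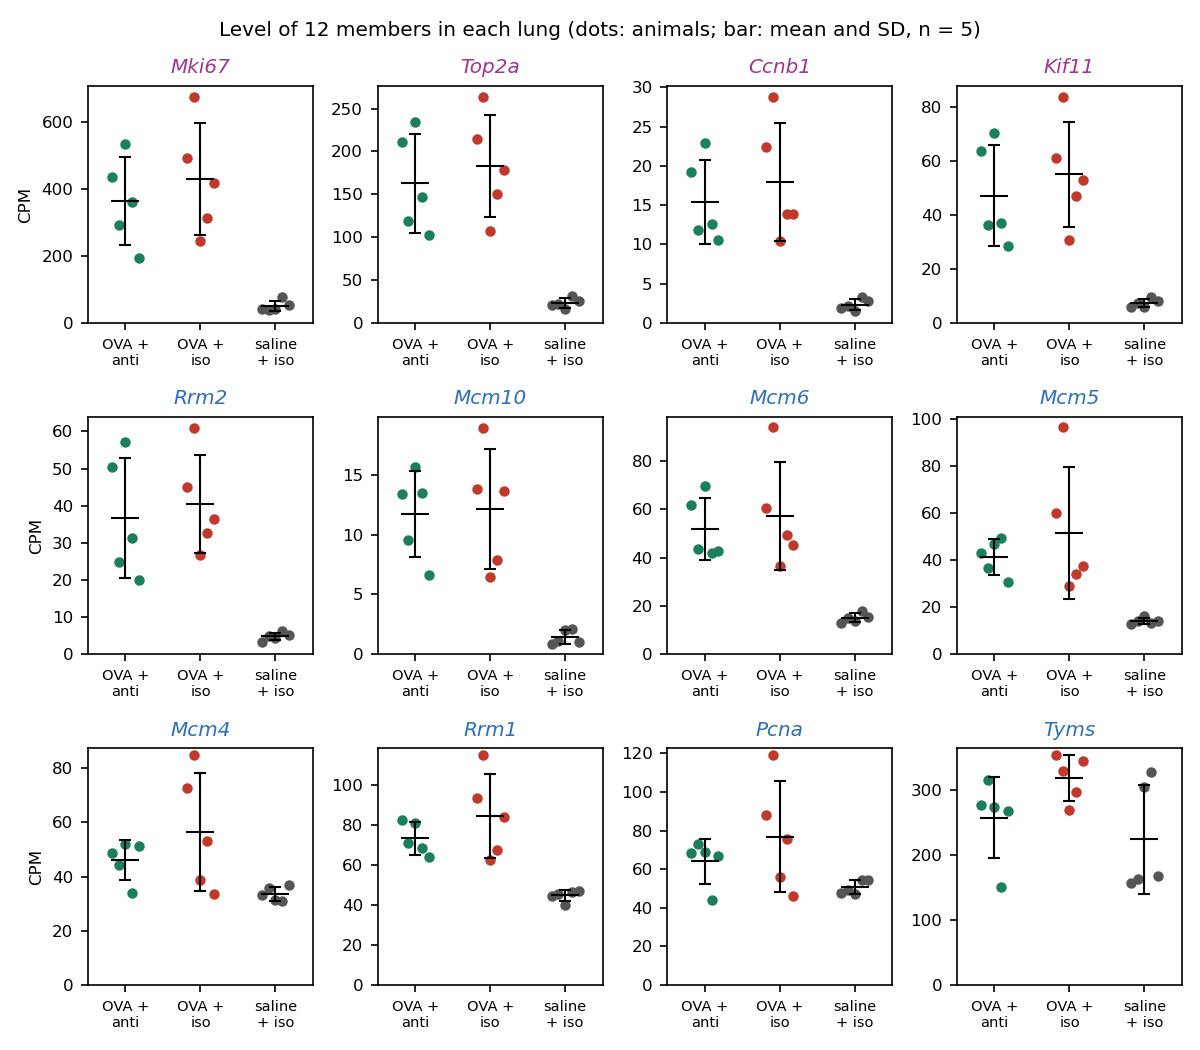
CPM of 12 of the genes in each lung, with dots for animals and bars for the mean and SD of 5 animals. Mki67, Top2a, Ccnb1, Kif11, Rrm2 and Mcm10 are near the bottom of their axes in saline lungs and spread widely in challenged lungs, whereas Pcna and Tyms overlap between groups.

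The 5 licensing and replication support genes were all higher with OVA, with a median log2 fold change of 1.53. Cdc6, an ATPase that loads the helicase, was at 7.63 CPM or more in every OVA lung and at 1.77, 1.98, 2.32, 2.23 and 1.71 CPM in saline lungs, a difference of 2.53 ± 0.25 (adjusted p = 1.6e-05). Cdt1, its partner in loading, averaged 14.5 ± 4.88 CPM in OVA lungs and 5.92 ± 0.825 CPM in saline lungs, with a smaller log2 fold change of 1.29 ± 0.25 (adjusted p = 0.0012). Uhrf1, which directs maintenance DNA methylation to newly copied DNA, averaged 47.2 ± 20.2 CPM in OVA lungs and 7.55 ± 0.727 CPM in saline lungs, a log2 fold change of 2.65 ± 0.28 (adjusted p = 1.9e-05). The GINS subunits Gins1 and Gins2, part of the active helicase, each had a log2 fold change of 1.53. All OVA lungs exceeded all saline lungs for each of these 5 genes.

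The 8 regulators were also all higher with OVA, with a median log2 fold change of 2.15. The activating factor E2f1 was at 34.8, 31.2, 22.3, 25.4 and 70.6 CPM in OVA lungs and at 10.6, 10.5, 14.1, 15.8 and 13.1 CPM in saline lungs, a log2 fold change of 1.52 ± 0.28 (adjusted p = 0.00088). OVA replicate 5 was far above the other OVA lungs. E2f2 had the smallest change of the regulators, averaging 37.6 ± 9.82 CPM in OVA lungs and 21.1 ± 3.14 CPM in saline lungs (0.83 ± 0.23, adjusted p = 0.010). E2f8, an E2F target that represses other targets late in S phase, changed by 2.51 ± 0.30 (adjusted p = 4.8e-05). The cyclin E genes Ccne1 and Ccne2, partners of Cdk2 at S phase entry, changed by 2.54 ± 0.35 (adjusted p = 0.00011) and 1.79 ± 0.32 (adjusted p = 0.00081).

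Among the regulators of later phases, Mybl2, which encodes B-MYB, averaged 13.1 ± 6.50 CPM in OVA lungs and 2.10 ± 0.638 CPM in saline lungs, a log2 fold change of 2.64 ± 0.38 (adjusted p = 0.00015). Foxm1 averaged 22.4 ± 6.68 CPM in OVA lungs and 7.83 ± 1.20 CPM in saline lungs, with 1.52 ± 0.26 (adjusted p = 0.00058). Chek1, the S phase checkpoint kinase, was at 7.42, 12.1, 4.39, 6.84 and 5.53 CPM in OVA lungs and within 1.05 to 1.28 CPM in saline lungs (2.58 ± 0.29, adjusted p = 2.8e-05). The 8 regulators showed no overlap between OVA and saline lungs.

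All 26 mitosis genes were higher with OVA, without overlap between the groups. Their log2 fold changes ran from 1.68 to 3.08 with a median of 2.58, a 5.97-fold difference. Mki67, the marker of cycling cells that coats mitotic chromosomes, was at 435, 293, 534, 361 and 195 CPM in anti-IL-4Ra lungs, 492, 674, 245, 314 and 418 CPM in OVA lungs, and 42.2, 40.0, 40.9, 77.4 and 52.9 CPM in saline lungs. Its log2 fold change was 3.08 ± 0.32 (adjusted p = 1.6e-05). The lowest OVA lung held more than 3 times the Mki67 of the highest saline lung, replicate 4.

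Top2a, the topoisomerase that untangles sister chromosomes, was at 211, 119, 234, 147 and 103 CPM in anti-IL-4Ra lungs, 214, 264, 107, 151 and 179 CPM in OVA lungs, and 21.3, 22.0, 16.6, 31.4 and 25.9 CPM in saline lungs. Its log2 fold change was 2.97 ± 0.28 (adjusted p = 9.5e-06). Within each challenged group the order of lungs was that of Mki67, with OVA replicate 2 highest and OVA replicate 3 lowest among OVA lungs.

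The genes of mitotic entry were higher together. Cdk1 was at 20.5, 30.0, 14.0, 15.2 and 17.9 CPM in OVA lungs and at 2.63, 3.02, 2.67, 3.97 and 3.05 CPM in saline lungs (2.67 ± 0.26, adjusted p = 1.6e-05). Its partner cyclin Ccnb1 was at 22.4, 28.8, 10.5, 13.9 and 13.9 CPM in OVA lungs and at 1.96, 2.13, 1.56, 3.32 and 2.75 CPM in saline lungs (2.94 ± 0.32, adjusted p = 2e-05). Ccna2 and Ccnb2, the cyclins of S phase to mitosis and of mitosis, changed by 2.69 ± 0.29 (adjusted p = 2.1e-05) and 2.21 ± 0.26 (adjusted p = 4.1e-05). Plk1, a kinase that acts from mitotic entry to cytokinesis, averaged 20.2 ± 5.85 CPM in OVA lungs and 3.74 ± 0.802 CPM in saline lungs (2.44 ± 0.31, adjusted p = 6.2e-05).

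Of the chromosomal passenger complex, Aurkb was at 16.0, 19.3, 8.57, 9.71 and 13.9 CPM in OVA lungs and at 1.96, 1.55, 2.52, 3.65 and 1.89 CPM in saline lungs (2.55 ± 0.33, adjusted p = 7.5e-05). Birc5, or survivin, averaged 21.4 ± 6.10 CPM in OVA lungs and 3.32 ± 1.87 CPM in saline lungs (2.70 ± 0.35, adjusted p = 8e-05). Cdca8, or borealin, changed by 2.96 ± 0.33 (adjusted p = 2.7e-05). Within the complex the 3 changes lay inside each other's 95% intervals.

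The spindle checkpoint kinases Bub1, Bub1b and Ttk changed by 2.14 ± 0.35, 2.90 ± 0.30 and 2.83 ± 0.40 on the log2 scale, with adjusted p of 0.00041, 1.8e-05 and 0.00013. Cenpe, a kinetochore motor, was at 69.0, 94.5, 32.1, 46.1 and 71.5 CPM in OVA lungs and at 6.24, 6.51, 6.15, 11.4 and 6.65 CPM in saline lungs (3.08 ± 0.34, adjusted p = 2.2e-05). Kif11, which pushes spindle poles apart, was at 60.8, 83.7, 30.8, 46.8 and 52.7 CPM in OVA lungs and at 6.02, 7.40, 6.10, 9.52 and 8.18 CPM in saline lungs (2.89 ± 0.29, adjusted p = 1.6e-05).

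The smallest changes among mitosis genes were those of Aurka, Kif23 and Cdc20. Aurka, a kinase of the spindle poles, averaged 11.0 ± 3.76 CPM in OVA lungs and 3.41 ± 0.360 CPM in saline lungs (1.68 ± 0.28, adjusted p = 0.00043). Kif23, a motor of cytokinesis, averaged 25.1 ± 7.50 CPM in OVA lungs and 7.37 ± 0.910 CPM in saline lungs (1.77 ± 0.20, adjusted p = 2.9e-05). Cdc20, an activator of the anaphase-promoting complex, changed by 1.78 ± 0.29 (adjusted p = 0.00035), and Ube2c, the ubiquitin-conjugating enzyme of that complex, by 2.02 ± 0.29 (adjusted p = 0.00016). Each of these log2 fold changes was above that of at least 7 of the 11 replication genes.

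The 7 mitosis genes not yet named lay between these ends. Log2 fold changes were 2.03 ± 0.22 for Prc1, which bundles the central spindle, 2.12 ± 0.27 for Nusap1 and 2.61 ± 0.26 for Tpx2, which act on spindle microtubules, and 2.22 ± 0.24 for Kif20a, a motor of cytokinesis. They were 2.42 ± 0.29 for the kinetochore gene Cenpf and 2.65 ± 0.28 for the kinase Melk, and adjusted p for these 6 was 6e-05 or less. Nek2, a centrosome kinase, was at 62.8, 15.6, 75.7, 38.5 and 20.8 CPM in anti-IL-4Ra lungs, 46.4, 51.9, 45.1, 35.9 and 50.8 CPM in OVA lungs, and 8.61, 16.9, 5.50, 8.22 and 8.73 CPM in saline lungs. It was even among OVA lungs and uneven among anti-IL-4Ra lungs, where replicate 2 fell into the saline range (OVA over saline 2.26 ± 0.39, adjusted p = 0.00055).

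**Figure D3:**
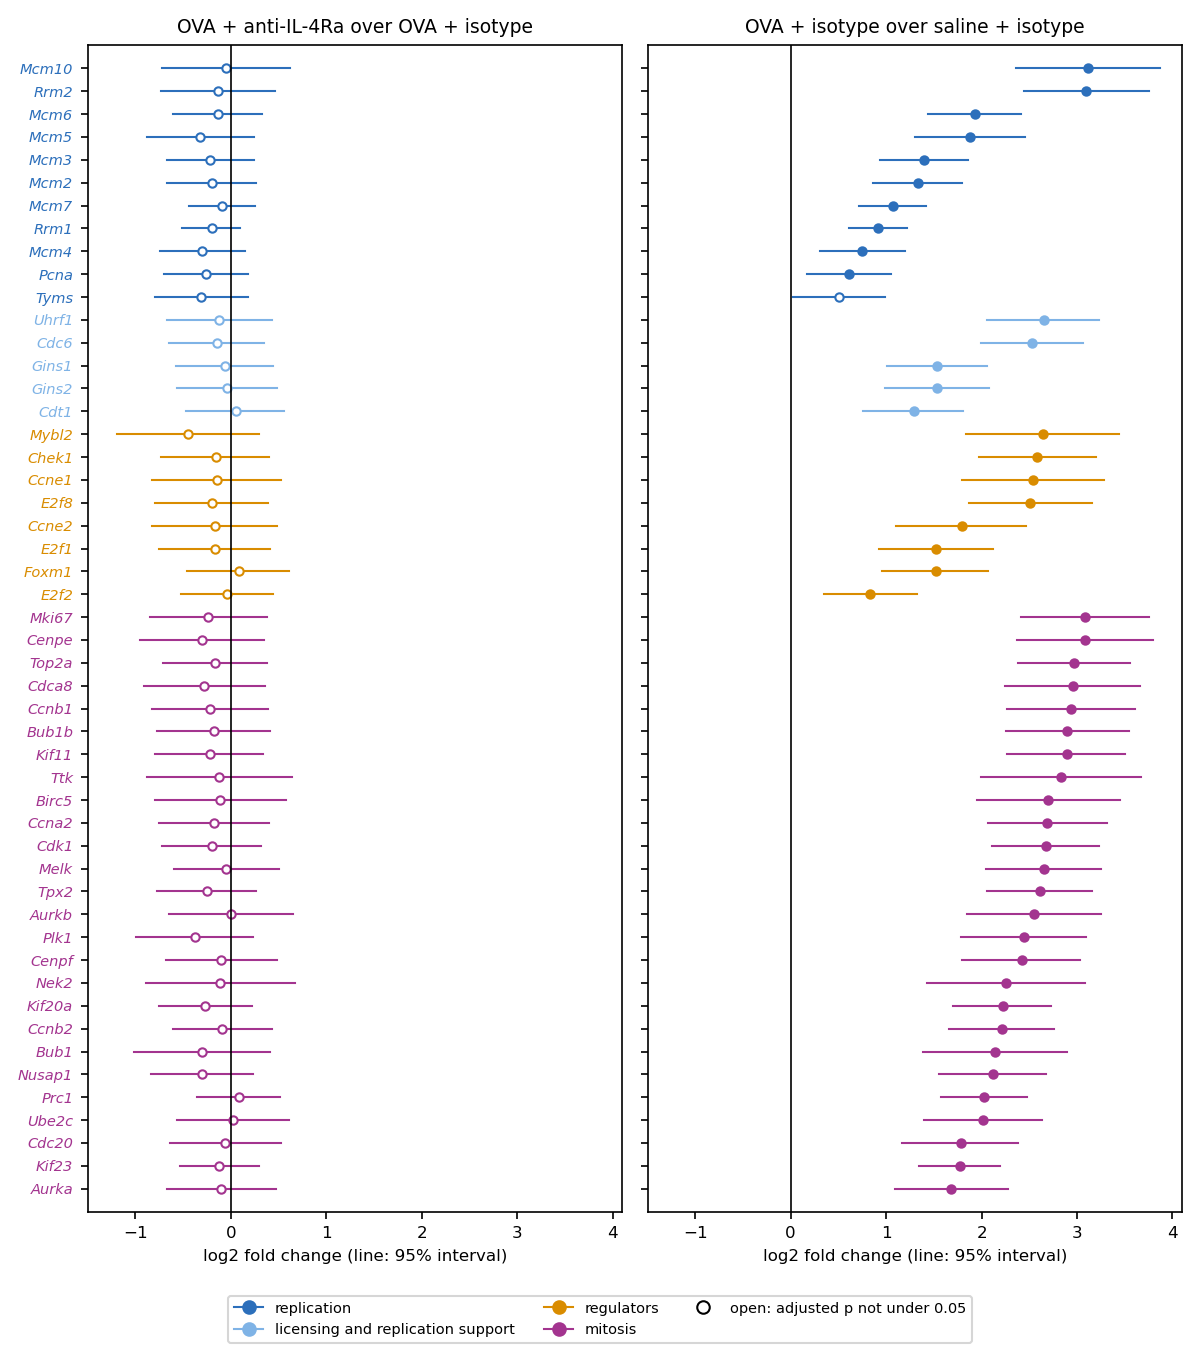
Log2 fold changes with 95% intervals from the fit over all 15 lungs, for anti-IL-4Ra over OVA on the left and OVA over saline on the right, sorted within each role by the change with OVA. On the right all 50 points are above 0 and only Tyms is open, whereas on the left all 50 points are open and lie between -0.45 and 0.08.

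Set side by side, mitosis genes changed more with OVA than replication genes, with medians of 2.58 over 26 genes and 1.33 over 11 genes. At least a 4-fold difference, log2 of 2, was reached by 23 of 26 mitosis genes and by 2 of 11 replication genes, Rrm2 and Mcm10. These counts describe the lists and carry no test, since genes are not replicates. The order held lung by lung: the mean log2 level over saline was 1.61 to 2.88 for mitosis genes and 1.01 to 1.58 for replication genes in anti-IL-4Ra lungs, and 1.88 to 3.07 for mitosis genes and 0.96 to 2.12 for replication genes in OVA lungs. The difference of the means, mitosis minus replication, was 0.61 to 1.30 in anti-IL-4Ra lungs, 0.92 to 1.15 in OVA lungs and -0.26 to 0.20 in saline lungs. Each of the 10 challenged lungs thus lay above each saline lung, and the anti-IL-4Ra and OVA ranges overlapped.

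Within the replication genes, the size of the change followed the level in saline lungs. Per kilobase of the longest coding transcript in GENCODE, mean saline levels were 70.8 CPM for Tyms, 33.3 CPM for Pcna, 11.2 CPM for Rrm1, 9.37 CPM for Mcm4 and 8.89 CPM for Mcm7, the genes with the smallest changes. Rrm2 and Mcm10, with the largest, were at 2.16 and 0.290 CPM per kilobase. Spearman's rho between saline level and log2 fold change was -0.98 over the 11 replication genes, -0.34 over the 26 mitosis genes and -0.57 over all 50. These are descriptions across genes, and the same saline lungs enter both axes.

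On a linear scale the order of the medians turned round. The mean gain of OVA over saline, in CPM per kilobase, had a median of 9.93 over the 11 replication genes and 6.27 over the 26 mitosis genes. The mean gain of OVA over saline was 29.8 CPM per kilobase for Tyms, 17.4 for Pcna, 16.3 for Rrm2, 9.93 for Rrm1, 6.40 to 11.4 for the 6 ring subunits and 2.22 for Mcm10. Among mitosis genes Mki67 and Top2a stood apart with 37.6 and 30.6 CPM per kilobase, and the other 24 gained 2.74 (Ttk) to 11.3 (Nek2). Rrm2 and Pcna, which differed in log2 fold change by 3.09 against 0.61, therefore had similar mean gains of RNA per length. These gains are differences of means without a test. Tyms did not pass the test for a change, and the call of Pcna was lost without some single lungs.

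**Figure D4:**
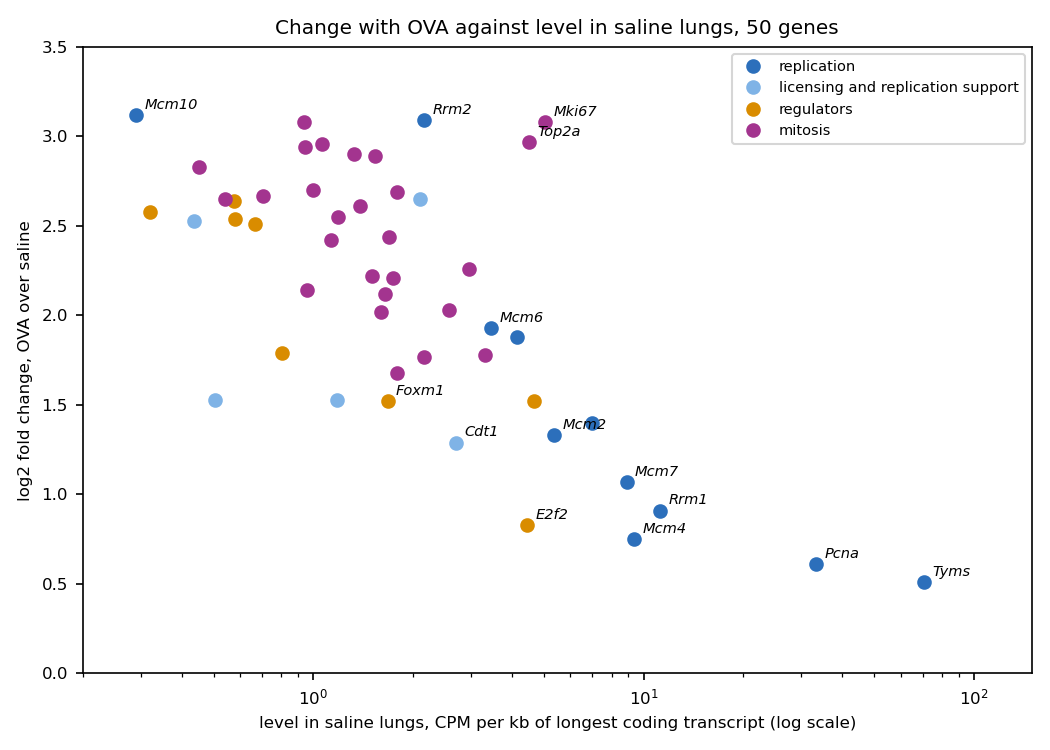
Log2 fold change of OVA over saline against the mean level in saline lungs, in CPM per kilobase of the longest coding transcript on a log axis, with 1 dot per gene coloured by role. Replication genes run from Mcm10 at the upper left (0.290 CPM per kilobase, 3.12) down to Tyms at the lower right (70.8 CPM per kilobase, 0.51), and Mki67 and Top2a lie above that line.

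Genes of the same pathways outside the 50 changed in a graded way, where 19.3% of all genes tested were called higher and 17.8% lower. In lists of textbook genes, OVA lungs were higher for 21 of 22 spindle and cytokinesis genes (median log2 fold change 2.11), 23 of 28 kinetochore, cohesin and condensin genes (1.82), 18 of 23 repair and checkpoint genes (0.82) and 17 of 22 genes of polymerases, the clamp loader and Okazaki fragments (0.79). They were higher for 8 of 15 genes of origin recognition and helicase loading (0.52), and none of these 5 lists held a gene that was lower. Examples are Cep55, a cytokinesis scaffold (3.25 ± 0.33, adjusted p = 1.6e-05), Ncapg, a condensin subunit (3.65 ± 0.44, adjusted p = 5.1e-05), Clspn, a checkpoint adaptor (2.78 ± 0.33, adjusted p = 4.6e-05), and Pole, the leading strand polymerase (2.23 ± 0.26, adjusted p = 4.3e-05).

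Nucleotide supply was mixed, with 6 of 12 genes higher and 1 lower. Tk1, the S phase thymidine kinase, was higher by 1.78 ± 0.24 (adjusted p = 8.7e-05), while Rrm2b, the reductase subunit that serves resting cells, was lower, averaging 37.2 ± 9.09 CPM in OVA lungs and 55.9 ± 3.12 CPM in saline lungs (-0.59 ± 0.17, adjusted p = 0.015; with the Rn45s covariate -0.14, adjusted p = 0.68). The lists of G1 genes and of inhibitors and quiescence genes showed no shared direction. Of 13 G1 cyclins, kinases and other E2F genes 4 were higher and 3 lower (median 0.08). Of 23 inhibitors and quiescence genes 3 were higher and 5 lower (median 0.04). Over all genes tested 19.3% were higher and 17.8% lower (median 0.02), so these counts set neither list apart. E2f7, which like E2f8 represses E2F targets, was higher (1.92 ± 0.30, adjusted p = 0.00029), whereas Ccnd1, or cyclin D1, was lower (-0.55 ± 0.17, adjusted p = 0.017). The CDK inhibitors Cdkn2b and Cdkn1c were lower, with log2 fold changes of -1.24 ± 0.21 (adjusted p = 0.00047) and -1.12 ± 0.18 (adjusted p = 0.00035). With the Rn45s covariate these 4 calls were lost: E2f7 was 1.01 (adjusted p = 0.082), Ccnd1 -0.14 (adjusted p = 0.68), Cdkn2b -0.77 (adjusted p = 0.077) and Cdkn1c -0.79 (adjusted p = 0.055).

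By list, the fit with that covariate called 17 of 22 spindle and cytokinesis genes, 16 of 28 kinetochore, cohesin and condensin genes and 8 of 23 repair and checkpoint genes, all higher with OVA. It called 3 of 22 polymerase, clamp loader and Okazaki fragment genes, 3 of 15 genes of origin recognition and helicase loading and 2 of 12 nucleotide supply genes, also higher. In edgeR with the covariate 0 of 13 G1 genes and 0 of 23 inhibitors and quiescence genes were called. In that fit 5 and 8 of them had an unadjusted p under 0.05. Over all 15905 genes tested it called 752, with 3.06% called higher, so a count of 0 in lists this short sets neither apart.

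With the log2 share of Rn45s as a covariate, the fit called 35 of the 50 genes higher in OVA than in saline lungs, where 3.06% of all genes tested were called higher. By role these were 4 of 11 replication genes (Mcm5, Mcm6, Mcm10 and Rrm2), 3 of 5 licensing genes, 5 of 8 regulators and 23 of 26 mitosis genes. All 50 log2 fold changes stayed positive, from 0.12 for E2f2 to 2.46, with a median of 0.91 for replication genes and 1.90 for mitosis genes. The calls of Mcm2 (0.84, adjusted p = 0.096), Mcm3 (0.95, adjusted p = 0.067), Mcm4 (0.91, adjusted p = 0.092), Mcm7 (0.64, adjusted p = 0.069), Pcna (0.80, adjusted p = 0.12) and Rrm1 (0.69, adjusted p = 0.062) were lost, as were those of Cdt1, Gins2, E2f1, E2f2, Foxm1, Cdc20, Aurka and Nek2. Since the Rn45s share itself separates saline from OVA lungs, the part of Rn45s and that of the challenge cannot be fully told apart.

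For no gene of the set was a difference between anti-IL-4Ra and OVA lungs detected. None of the 50 genes was called between anti-IL-4Ra and OVA lungs by edgeR, a comparison with 48 calls in all (0.302% of genes tested, with 0.138% higher and 0.163% lower). The count was also 0 with DESeq2 and with limma voom, and 0 of the 50 had an unadjusted p under 0.05 in any of the 3, the lowest in edgeR being 0.17. The median log2 fold change was -0.17, beside -0.00 over all genes tested, with 46 genes below 0 and Cdt1, Foxm1, Ube2c and Prc1 above it. All 50 genes overlapped between the groups, whereas 0.509% of all genes tested lay wholly higher and 0.660% wholly lower.

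The intervals show what size of change these 5 against 5 lungs leave possible. For 48 of the 50 genes the lower bound of the 95% interval was above -1, so that a 2-fold fall lay outside it. The exceptions were Mybl2, with -0.45 and an interval of -1.19 to 0.29, and Bub1, with -0.30 and -1.01 to 0.41. The highest upper bound was 0.67. For Mki67 the difference was -0.24 (interval -0.85 to 0.38), for Top2a -0.17 (-0.71 to 0.38), for Rrm2 -0.14 (-0.73 to 0.46) and for Pcna -0.26 (-0.70 to 0.18). Replication genes had a median of -0.20, mitosis genes a median of -0.17 and licensing genes a median of -0.06. Without OVA replicate 2 the medians of the first pair were 0.04 and 0.00.

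Against saline lungs, anti-IL-4Ra lungs were higher for 47 of the 50 genes and lower for 0, where 13.9% of all genes tested were called higher and 26.6% in either direction. This comparison shares its saline lungs with that of OVA, so its values stand beside those and do not add to them. The median log2 fold change was 2.11 for all 50, 1.13 for the 11 replication genes and 2.41 for the 26 mitosis genes, all of which passed the test. Mki67 was higher by 2.84 ± 0.31 (adjusted p = 7.1e-05), Top2a by 2.80 ± 0.28 (adjusted p = 6.6e-05), Mcm10 by 3.06 ± 0.35 (adjusted p = 8.2e-05) and Rrm2 by 2.96 ± 0.31 (adjusted p = 7e-05). The genes that did not pass were Mcm4 (0.45 ± 0.21, adjusted p = 0.12), Pcna (0.34 ± 0.21, adjusted p = 0.23) and Tyms (0.20 ± 0.23, adjusted p = 0.54).

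The anti-IL-4Ra values lay above all saline values for 44 of the 50 genes, and for 9.54% of all genes tested (10.3% lay wholly below). Overlap was seen for Mcm4, Pcna, Tyms, E2f2, Ccne2 and Nek2. E2f2 was at 40.0, 24.4, 49.4, 46.2 and 22.4 CPM in anti-IL-4Ra lungs and at 16.7, 20.2, 24.8, 23.4 and 20.4 CPM in saline lungs (0.79 ± 0.23, adjusted p = 0.019). Its call was lost without anti-IL-4Ra replicate 3 (0.66, adjusted p = 0.061) or saline replicate 1 (0.71, adjusted p = 0.051). With the Rn45s covariate 30 of the 50 genes were called, 3 of 11 replication genes and 21 of 26 mitosis genes among them, where 2.02% of all genes were called higher.

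In the pathway lists outside the 50, 0 of 158 genes were called between anti-IL-4Ra and OVA lungs by edgeR, DESeq2 or limma voom. Of all genes tested edgeR called 0.302%, so a count of 0 does not set these lists apart. The 4 genes with an unadjusted p under 0.05, the same in each tool, were Ccnd2, Cdkn1b, Cdkn1c and Wee1, named here after their values were seen. In edgeR 903 of all 15905 genes tested had such a p. Against saline, anti-IL-4Ra lungs were higher for 93 and lower for 7 of the 158 genes, beside 100 and 9 in OVA lungs. Over all genes tested 13.9% were higher and 12.7% lower in anti-IL-4Ra lungs, and 19.3% and 17.8% in OVA lungs. Spindle and cytokinesis genes were higher in 21 of 22 cases and genes of origin recognition and helicase loading in 7 of 15. With the Rn45s covariate these counts were 15 of 22 and 3 of 15, where 2.02% of all genes tested were called higher.

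Lungs of the same group differed, and mostly the same lungs were high or low across the 50 genes. In the OVA group, replicate 2 was the highest for 45 of the genes and replicate 3 the lowest for 39. In the anti-IL-4Ra group, replicate 3 was the highest for 38 and replicate 5 the lowest for 40. In the saline group, replicate 4 was the highest for 29. The mean log2 level of all 50 genes over saline was 2.26, 1.66, 2.42, 1.93 and 1.39 in anti-IL-4Ra lungs and 2.34, 2.71, 1.55, 1.79 and 2.08 in OVA lungs, against -0.15 to 0.33 in saline lungs. The Rn45s share in the same order was 9.80, 3.10, 9.79, 12.4 and 1.65% in anti-IL-4Ra lungs and 5.50, 8.47, 4.99, 4.31 and 12.4% in OVA lungs. The 50 genes took 0.203 ± 0.0496% of all counts in anti-IL-4Ra lungs, 0.235 ± 0.0700% in OVA lungs and 0.0712 ± 0.0143% in saline lungs (SD, n = 5 each).

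**Figure D5:**
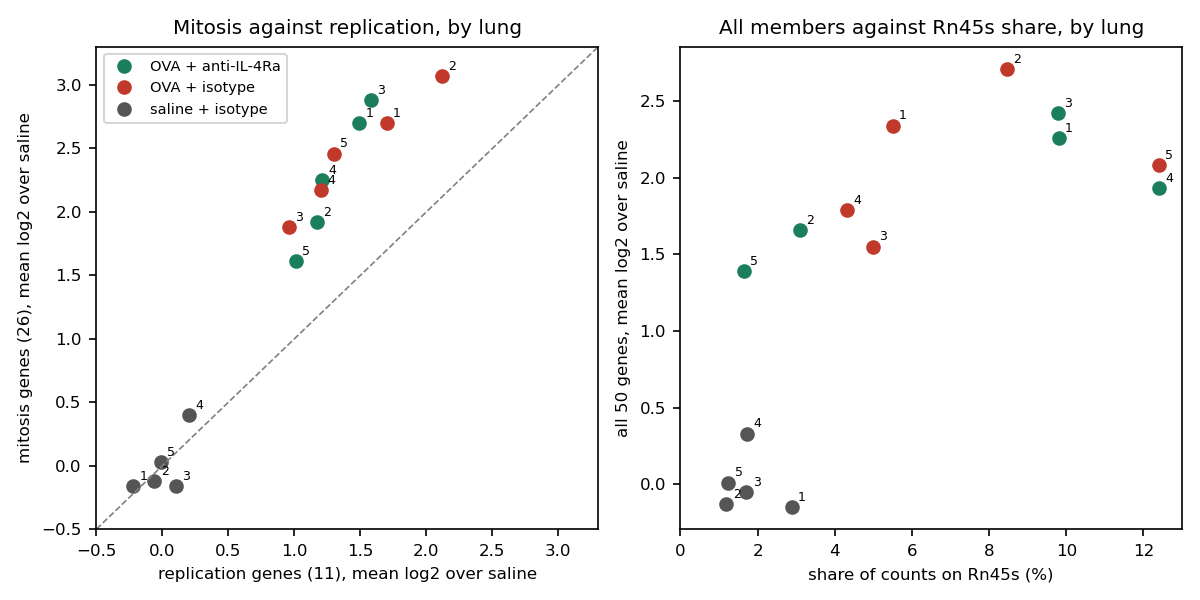
Left, the mean log2 level over saline of 26 mitosis genes against that of 11 replication genes in each lung, with a dashed line of equality. Right, the mean over all 50 genes against the share of counts on Rn45s. Numbers are replicates, and the 10 challenged lungs lie above the line of equality. The challenged lungs with the lowest Rn45s shares, 1.65 and 3.10%, lie at 1.39 and 1.66 while saline lungs reach 0.33. Both are anti-IL-4Ra lungs and the lowest of that group, whose other lungs lie at 1.93 to 2.42 with shares of 9.79 to 12.4%.

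Markers of several cell types moved beside the 50 genes. Between OVA and saline lungs, 19.3% of all genes tested were called higher and 17.8% lower. Comparing OVA with saline lungs, 9 of 11 T cell markers were higher, with a summed level of 173 to 380 CPM in anti-IL-4Ra lungs, 151 to 462 CPM in OVA lungs and 78.1 to 132 CPM in saline lungs. All 9 B cell markers were higher, summing to 295 to 1326 CPM in anti-IL-4Ra lungs, 361 to 1979 CPM in OVA lungs and 153 to 289 CPM in saline lungs. Of 11 plasma cell markers 9 were higher and 1 lower, and their sums were 626 to 4139 CPM in anti-IL-4Ra lungs, 1007 to 2442 CPM in OVA lungs and 424 to 575 CPM in saline lungs. Most lymphocyte markers were thus higher with OVA in the fit without the Rn45s covariate. With it, 1 of 11 T cell, 0 of 9 B cell and 0 of 11 plasma cell markers were called higher. Of all genes tested, 3.06% were called higher in that fit.

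Markers of resident endothelial and alveolar cells were mostly lower. Of 14 endothelial markers 13 were lower with OVA, with sums of 1801 to 4257 CPM in anti-IL-4Ra lungs, 1914 to 3629 CPM in OVA lungs and 4729 to 6318 CPM in saline lungs. Of 9 alveolar type 1 markers 8 were lower, and of 10 alveolar type 2 markers 7 were lower and 1 higher. With the Rn45s covariate 1 of 14 endothelial markers and 0 of the alveolar type 1 and type 2 markers were called lower. Eosinophil markers, which include Prg2 and Epx, were higher for 5 of 5 tested, with sums of 22.5 to 69.1 CPM in anti-IL-4Ra lungs, 69.5 to 138 CPM in OVA lungs and 6.43 to 19.2 CPM in saline lungs. Alveolar macrophage markers were mixed, with 3 of 11 higher and 5 lower, as were erythroid precursor markers, with 2 of 9 higher and 5 lower. Of all genes tested 19.3% were higher and 17.8% lower. With the Rn45s covariate 4 of 5 eosinophil, 4 of 11 alveolar macrophage and 1 of 9 erythroid markers were called higher. In the same fit 1 alveolar macrophage marker was called lower. No marker of these lists was at 0 in a whole group except the erythroid Hbb-bs, which is listed at 0 in all libraries. The part of these cell types in the changes of the 50 genes was not tested.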

How the data were processed

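Whole lung RNA of 15 mice (3 groups of 5, labelled as biological replicates) was sequenced. Per the labels' protocols, libraries were strand-specific (dUTP), and both rRNA depletion and oligo-dT selection are named. The authors deposited expected counts for each symbol and animal, made with RSEM 1.2.15 and Bowtie2 2.1.0 per the submitters' processing notes. The notes name the build hg38, but 22542 of 24054 symbols are current mouse RefSeq symbols and 1372 are mouse synonyms, so the genes were read as mouse genes. RSEM divides reads that match several genes, and 18 of the 50 genes had a value further than 0.005 from a whole number in some library. For 11 of them this was so in all 15 libraries.

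Expected counts were rounded and fitted with edgeR 4.0.16 (R 4.3.3): filterByExpr, TMM scaling and 1 quasi-likelihood fit of all 15 libraries with groups as the terms. Tests were two-sided, with Benjamini-Hochberg adjustment over all 15905 genes tested and a threshold of 0.05. Standard errors come from the F statistic, and 95% intervals use the fit's degrees of freedom. CPM use TMM-scaled totals, and counting error is not shown apart from the spread between animals. All OVA, saline and anti-IL-4Ra comparisons share libraries. The Rn45s share was compared by exact permutation. Alternatives were DESeq2 1.42.0, limma 3.58.1 (voom), RLE factors, totals without Rn45s, other filters (none, or 1 CPM in 5 libraries), the 2 groups alone, a replicate block, the Rn45s share as covariate, and each replicate left out. The pipeline was tested on simulated data.

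The members and the lists were chosen with earlier results of these data known. Named genes were fixed by rule: 24 symbols, the extremes of each role by change with OVA, and in each pathway list the 2 called genes of largest change per direction. Other members are named as examples of their role. Incenp is named outside this rule, beside the other subunits of its complex, after its value was seen.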

Additional observations from a re-analysis of the deposited data

Results flagged for a closer look

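Within groups, 4 of 99 groups of 5 lungs tested held a value that stood apart from the rest by Dixon's criterion, and chance gives about 1 in 20. In anti-IL-4Ra lungs, Pcna was 43.8 CPM in replicate 4, below the 66.8 to 73.1 CPM of the other replicates. Tyms was 151 CPM in the same lung, below 268 to 315 CPM. That lung had 12.4% of its counts on Rn45s, the highest share of its group. In OVA lungs, E2f1 was 70.6 CPM in replicate 5, above 22.3 to 34.8 CPM in the others, and that lung also had 12.4% of counts on Rn45s. In saline lungs, Cenpe was 11.4 CPM in replicate 4, above 6.15 to 6.65 CPM. That lung had 1.73% of its counts on Rn45s, within the 1.19 to 2.88% of its group. Values that were not flagged stood apart there too. In the same lung Ccna2 was 7.56 CPM, above 4.55 to 4.88 CPM, and Tpx2 was 7.62 CPM, above 5.45 to 5.86 CPM. The part of Rn45s in these values was not tested.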

How the results depend on the processing

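Across DESeq2, limma voom, RLE factors, totals without Rn45s, either filter on low counts and the 2 groups alone, the 50 genes gave 48 or 49 calls for OVA over saline, 47 or 48 for anti-IL-4Ra over saline, and 0 for anti-IL-4Ra over OVA. Pcna lost its call over saline with limma voom (0.53, adjusted p = 0.055), and Mcm4 gained a call in anti-IL-4Ra over saline with the 2 groups alone (0.45, adjusted p = 0.020). DESeq2 called 128 genes in all between anti-IL-4Ra and OVA lungs, beside 48 with edgeR, and the cause was not tested. Aurkb, at -0.00 in that comparison, was 0.00 with DESeq2, RLE factors and the 2 groups alone and 0.01 with either other filter, without Rn45s in totals and with the covariate. Mcm10 was 0.00 with limma voom and 0.01 with the covariate, and Gins2 was 0.00 with the covariate.

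With the Rn45s share as covariate, 752 genes were called for OVA over saline and 373 for anti-IL-4Ra over saline. For OVA over saline 35 members were called, 4 of them replication genes, with a mitosis median of 1.90. For anti-IL-4Ra over saline 30 members were called, 3 of them replication genes, with medians of 0.68 for replication and 1.72 for mitosis genes. The Rn45s share itself differs between saline and challenged lungs.

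Replicate numbers did not pair the lungs: correlations of deviations between same-numbered lungs ran from -0.546 to 0.347. With a replicate block 26 genes were called between anti-IL-4Ra and OVA lungs, Pcna lost its call for OVA over saline (0.55, adjusted p = 0.068) and E2f2 lost its call for anti-IL-4Ra over saline (0.77, adjusted p = 0.056).

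With each replicate left out, the members called were 48 to 50, 0 and 46 to 47 for OVA over saline, anti-IL-4Ra over OVA and anti-IL-4Ra over saline. Replication medians ran from 1.07 to 1.39 for OVA over saline and from -0.29 to 0.04 for anti-IL-4Ra over OVA. The exact permutation p of the Rn45s share ran from 0.516 to 0.944 for anti-IL-4Ra against OVA and from 0.00794 to 0.0794 for anti-IL-4Ra against saline. For anti-IL-4Ra over OVA the log2 fold changes of these genes, none called, crossed 0. Mcm10 ran from -0.19 to 0.16, Aurkb from -0.13 to 0.17, Uhrf1 from -0.24 to 0.10 and Mcm2 from -0.29 to 0.05. Mcm3 ran from -0.32 to 0.03, Mcm5 from -0.45 to 0.04, Mcm6 from -0.27 to 0.12 and Mcm7 from -0.16 to 0.06. Rrm2 ran from -0.35 to 0.06, Cdk1 from -0.40 to 0.01, Ccnb1 from -0.41 to 0.02 and Birc5 from -0.27 to 0.03. Gins2 ran from -0.15 to 0.16, E2f2 from -0.18 to 0.10, Chek1 from -0.31 to 0.10 and Aurka from -0.28 to 0.12. Kif23 ran from -0.21 to 0.02, Cdt1 from -0.05 to 0.26, Foxm1 from -0.08 to 0.24 and E2f1 from -0.28 to 0.20.

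Depth limits little here, since the lowest count of any member was 15. The limits are 5 lungs a group, whole tissue in which cell number and RNA per cell cannot be separated, an Rn45s share that differs with challenge, and reads that RSEM divides between similar genes.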

Other observations

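Further pathway genes outside the 50, taken from the same lists, add detail on each step. At the origin, Cdc45, the helicase partner of MCM and GINS, averaged 10.6 ± 3.23 CPM in OVA lungs and 2.67 ± 0.262 CPM in saline lungs (log2 fold change 1.99 ± 0.26, adjusted p = 7.6e-05). Orc1, the origin recognition subunit that varies through the cell cycle, averaged 5.09 ± 1.82 CPM in OVA lungs and 1.40 ± 0.206 CPM in saline lungs (1.86 ± 0.26, adjusted p = 0.00012). Lig1, which joins Okazaki fragments, was higher by 1.59 ± 0.22 (adjusted p = 0.0001), and Exo1, a repair exonuclease, by 2.66 ± 0.34 (adjusted p = 6.6e-05). Stil, needed to copy centrioles, was higher by 3.07 ± 0.30 (adjusted p = 1.4e-05).

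In the lists of G1 genes and of inhibitors and quiescence genes, Lin9, a MuvB subunit, averaged 9.07 ± 1.25 CPM in OVA lungs and 5.38 ± 0.714 CPM in saline lungs (0.75 ± 0.16, adjusted p = 0.0020). Tfdp2, a dimer partner of E2F, averaged 60.9 ± 11.4 CPM in OVA lungs and 95.9 ± 8.86 CPM in saline lungs (-0.66 ± 0.16, adjusted p = 0.0061). Cdkn1c, or p57, averaged 16.2 ± 3.00 CPM in anti-IL-4Ra lungs, 12.4 ± 3.37 CPM in OVA lungs and 26.8 ± 0.315 CPM in saline lungs. With the Rn45s covariate the differences of Lin9, Tfdp2 and Cdkn1c between OVA and saline lungs no longer passed the test (adjusted p = 0.076, 0.47 and 0.055).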
